A study of Mus musculus with 8 samples.

Results

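A set of 10 genes that mark or drive the epithelial-mesenchymal transition was followed across mouse embryonic stem cells that differ in β-catenin and in exposure to a GSK3 inhibitor. The genes were taken by symbol from a table of 48440 genes. They are the mesenchymal cadherin Cdh2, the filament gene Vim, the matrix genes Fn1 and Tgfbi, the transcription factors Snai1, Snai2, Zeb1, Zeb2 and Twist1, and the epithelial adhesion gene Epcam. All 10 were found once and all 10 passed the filter on low counts. The parental cells (CTNNB1+/+) and the β-catenin knock-out (CTNNB1-/-) were both on a 129/Ola background, derived from the blastocyst, and grown without feeder cells on gelatin in serum medium. Each line was kept for 72 hours either in 3 μM of the GSK3 inhibitor CHIR99021 or in vehicle, which was DMSO at 0.3 μl/ml. Polyadenylated RNA was sequenced from 2 libraries in each of the 4 groups, 8 in all. The labels do not say whether these came from separate cultures, so the tests measure the spread between libraries, which may be technical. The knock-out is represented by a single line in the labels, so β-catenin and any other difference between the lines cannot be told apart.

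An epithelial-mesenchymal transition is the change by which cells held in a sheet by E-cadherin junctions loosen, replace keratin filaments by vimentin and E-cadherin by N-cadherin, and lay down fibronectin. The SNAIL, ZEB and TWIST transcription factors drive it by binding E-box sequences and repressing junction genes. In the embryo it takes place in the primitive streak, where the epiblast responds to Wnt and Nodal signals. GSK3 marks both β-catenin and the SNAI1 protein for breakdown, and β-catenin also sits at the junction with cadherins. Embryonic stem cells are epithelial in character, and express E-cadherin and EpCAM.

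Each library held between 23650572 and 27680649 estimated counts, and levels are given as CPM, counts scaled to a common library total. Ctnnb1, which encodes β-catenin, ran from 813 to 906 CPM in the 4 parental libraries and from 7.98 to 10.7 CPM in the 4 knock-out libraries. Embryonic stem cell markers were detected in every group, and their 10 levels summed to between 5554 and 6254 CPM per library. Of 10 fibroblast markers, Dcn, Lum and Postn had no count in any library and Col3a1 had 1 count over all of them, while Fbln1, Pdgfrb, Thy1 and Col1a1 were detected. Fbln1, Pdgfrb and Thy1 were higher with CHIR99021 in parental cells (log2 fold change 0.75 ± 0.07, 1.48 ± 0.12 and 0.66 ± 0.13, SE; edgeR adjusted p = 1.9e-05, 7.01e-06 and 0.00456). These were 3 of 5 fibroblast markers tested, while 9.1% of all tested genes were higher at an adjusted p under 0.05. The other 2, Col1a1 (0.06 ± 0.30) and Fap (-1.17 ± 0.85), did not pass (edgeR adjusted p = 0.929 and 0.389). Col1a2, with 36 counts over all libraries, was too low to be tested. In bulk RNA, fewer cells of a type and less RNA per cell cannot be told apart.

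Called here means an adjusted p under 0.05 in edgeR's quasi-likelihood test over all 17739 tested genes. CHIR99021 raised 1 of the 10 genes (Fn1) and lowered 3 (Tgfbi, Vim and Epcam) in parental cells, where 19.4% of all tested genes were called, 9.1% higher and 10.3% lower. In the knock-out it raised 1 (Fn1) and lowered 2 (Vim and Epcam), against 7.06% of all genes, 2.88% higher and 4.18% lower. Knock-out against parental cells in DMSO gave 1 lower gene (Fn1), against 6.75% of all genes, 3.13% higher and 3.62% lower. In CHIR99021 the knock-out had 3 higher (Tgfbi, Zeb1 and Zeb2) and 1 lower (Fn1), against 23.7% of all genes, 11.2% higher and 12.5% lower. The CHIR99021 effect itself differed between the lines for 2 genes, Tgfbi and Fn1, against 6.13% of all genes, 3.22% higher and 2.91% lower. The median log2 fold change of the 10 genes was -0.29, 0.13, 0.17, 0.29 and 0.07 in these 5 comparisons in turn, while that of all tested genes lay between -0.0028 and 0.0040. Comparisons that use the same group share its libraries and are not independent.

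**Figure D1:**
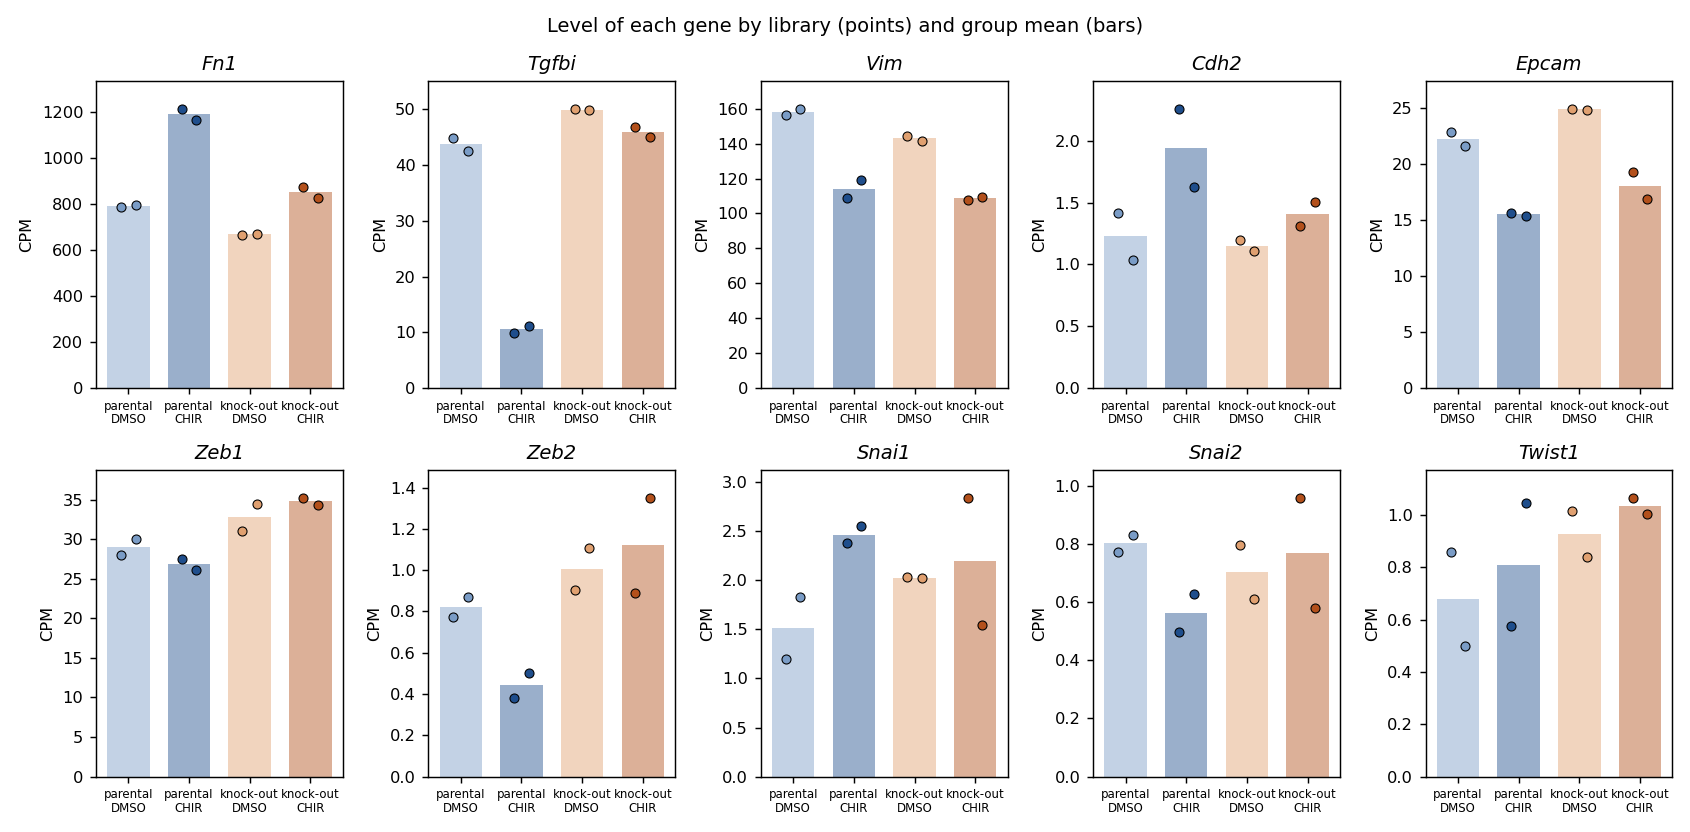
Level of each of the 10 genes in CPM (vertical axes from 0, a separate scale for each gene) in the 4 groups on the horizontal axes. Points are the 2 libraries of a group and bars their mean. Tgfbi in parental cells with CHIR99021, at 9.85 and 11.2 CPM, lies below all other libraries, and Fn1 is highest in the same group, at 1212 and 1165 CPM.

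E-boxes of the form CACCTG, the sequence that SNAIL and ZEB factors bind, were searched on both strands in the window from 250 bases before to 50 after each RefSeq start (GRCm38.p6). The TCF/LEF sequence, through which β-catenin reaches DNA, was searched in the same windows as any of 4 forms, written CTTTGAA with its variant CTTTGAT and, on the same pattern, CTTTGTA with its variant CTTTGTT. RefSeq promoters matched 6 of the 10 genes. Of all 32851 promoters of this length 20.2% held the E-box and 16.9% a TCF/LEF sequence. Epcam held 2 E-boxes, starting 187 and 19 bases before the start, Snai1 held 1 at 126 bases before it, and the windows of Vim, Tgfbi, Twist1 and Zeb2 (4 starts) held none. No TCF/LEF sequence lay in the windows of these 6 genes. The stretches before the annotated starts are shown for the epithelial gene and the factor gene that hold E-boxes and for Tgfbi, whose level changed most among the 10 genes (values follow). All are on the plus strand, and capitals mark the E-boxes (CAGGTG where it reads on the other strand).
Epcam, chr17:87635729-87635978: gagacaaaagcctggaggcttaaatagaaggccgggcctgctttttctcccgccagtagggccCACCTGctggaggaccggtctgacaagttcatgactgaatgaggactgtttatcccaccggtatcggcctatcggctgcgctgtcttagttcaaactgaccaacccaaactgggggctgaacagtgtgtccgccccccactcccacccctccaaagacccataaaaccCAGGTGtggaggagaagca
Snai1, chr2:167537945-167538194: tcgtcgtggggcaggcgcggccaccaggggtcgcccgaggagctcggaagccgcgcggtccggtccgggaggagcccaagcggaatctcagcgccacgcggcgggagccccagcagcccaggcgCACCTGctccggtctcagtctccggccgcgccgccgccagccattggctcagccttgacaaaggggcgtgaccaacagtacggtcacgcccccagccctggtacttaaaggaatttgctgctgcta
Tgfbi, chr13:56609336-56609522: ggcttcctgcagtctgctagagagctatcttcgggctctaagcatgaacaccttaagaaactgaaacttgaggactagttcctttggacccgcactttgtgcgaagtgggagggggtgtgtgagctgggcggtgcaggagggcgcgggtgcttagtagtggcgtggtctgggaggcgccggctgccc
A match describes these letters only. The absence of one in so short a window says nothing of binding elsewhere.

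Between genes, levels were compared per kilobase of annotated exon. Fn1 was the highest on this scale, with group means of 57.2 to 101.7 CPM per kilobase, followed by Vim at 22.9 to 33.3. Tgfbi, at 2.79 to 13.2, and Epcam, at 7.06 to 11.3 CPM per kilobase, formed the next pair. Zeb1 was the most abundant of the 5 transcription factor genes, at 2.61 to 3.39 CPM per kilobase, above Snai1 at 0.934 to 1.52. Twist1 lay at 0.417 to 0.636, Snai2 at 0.278 to 0.396, Cdh2 at 0.143 to 0.241 and Zeb2 at 0.0222 to 0.0561 CPM per kilobase. Fn1 and Vim thus stood above all 5 factor genes in every group. Exon length here is the union over all annotated transcripts, which overstates the length of a gene such as Zeb2 with 29 transcripts.

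**Figure D2:**
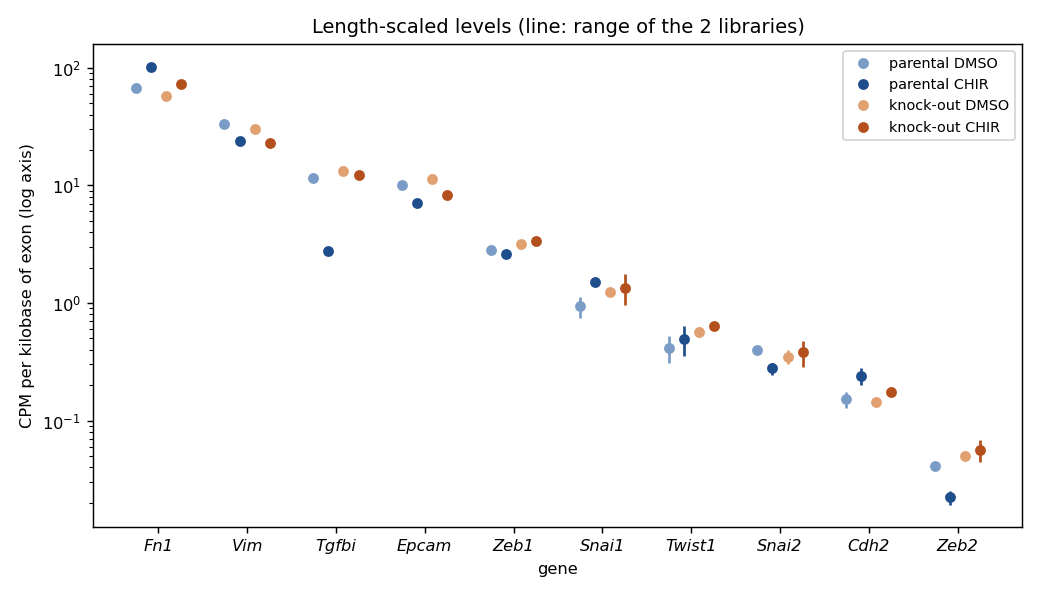
Level per kilobase of exon (log axis) for the 10 genes, ordered by their mean, with points for the mean of each of the 4 groups and lines for the range of its 2 libraries. Fn1 leads at 57.2 to 101.7 CPM per kilobase and Zeb2 is lowest.

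Fn1 encodes fibronectin, the matrix protein that mesenchymal cells lay down and move on (ENSMUSG00000026193, chromosome 1, 71585520 to 71653200, minus strand, GRCm38). Its libraries read 788 and 794 CPM in parental cells with DMSO, 1212 and 1165 with CHIR99021, 666 and 669.7 in the knock-out with DMSO, and 872 and 826 with CHIR99021. The 4 groups did not overlap, and within each line both CHIR99021 libraries lay above both DMSO libraries. CHIR99021 raised Fn1 1.50-fold in parental cells (log2 fold change 0.59 ± 0.04, SE; edgeR adjusted p = 1.31e-06) and 1.27-fold in the knock-out (0.35 ± 0.04; edgeR adjusted p = 0.000673). The rise was smaller in the knock-out, by a log2 difference of -0.24 ± 0.05 (edgeR adjusted p = 0.022). Leaving out parental DMSO replicate 1 or 2 ended that last call (adjusted p = 0.105 and 0.0777), as did leaving out parental CHIR99021 replicate 1 (0.0835) or knock-out CHIR99021 replicate 2 (0.114). The knock-out had less Fn1 than parental cells in DMSO (-0.24 ± 0.04; edgeR adjusted p = 0.0039) and in CHIR99021 (-0.48 ± 0.04; edgeR adjusted p = 5.43e-06). The antisense gene Apol7d overlaps Fn1 and stood at 0.352 to 0.906 CPM in the group means.

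Tgfbi encodes a secreted matrix protein, first found as a gene induced by TGF-β, that binds collagens and integrins (ENSMUSG00000035493, chromosome 13, 56609523 to 56639562, plus strand). It read 44.8 and 42.6 CPM in parental cells with DMSO, 9.85 and 11.2 with CHIR99021, 50.1 and 49.8 in the knock-out with DMSO, and 46.8 and 45.0 with CHIR99021. Only the parental libraries with CHIR99021 were low, and the other 6 lay between 42.6 and 50.1 CPM. CHIR99021 lowered Tgfbi 4.17-fold in parental cells (log2 fold change -2.06 ± 0.07, SE; edgeR adjusted p = 1.55e-08), which placed it 11th of all tested genes by p. The knock-out gave -0.12 ± 0.06, which was not called (edgeR adjusted p = 0.245). The 2 effects differed by 1.94 ± 0.09 on the log2 scale (edgeR adjusted p = 1.58e-06). Without the inhibitor the lines differed by 0.19 ± 0.06, not called (edgeR adjusted p = 0.0865), and with it the knock-out had 4.38-fold more Tgfbi (edgeR adjusted p = 6.55e-09).

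The matrix genes Fn1 and Tgfbi thus moved in opposite directions in parental cells. Some other cell type markers moved with the same group. Primitive streak and mesoderm markers (8 in the file, Msgn1 at 0 throughout) summed to 42.9 to 44.7 CPM in parental cells with CHIR99021. In the other 3 groups they summed to 2.97 to 4.21 CPM. The rise lay in Eomes and T, at 30.4 and 11.3 CPM in parental cells with CHIR99021. These 2 of the 4 tested were called higher there, against 9.1% of all genes. Mixl1 and Tbx6 were not called (edgeR adjusted p = 0.678 and 0.559), and Mesp1, Gsc, Evx1 and Msgn1 were too low to be tested. Primitive and parietal endoderm markers (10, none at 0) summed to 238.6 to 238.8 CPM in parental cells with CHIR99021. They reached 318 to 326 with DMSO, 388 to 402 in the knock-out with DMSO and 367 to 381 with CHIR99021. Sparc, Lama1 and Col4a1 led this sum. Of the 8 endoderm markers tested, CHIR99021 lowered 4 and raised 1 (Pdgfra) in parental cells, against 10.3% and 9.1% of all genes. Gata4 and Gata6 were not called there. The 10 fibroblast markers summed to 66.8 to 67.7 CPM in parental cells with CHIR99021 against 36.8 to 52.5 in the other groups, with Fbln1 at 46.0 and Pdgfrb at 13.3 CPM in the former. Trophoblast markers (6, with Eomes again) summed to 68.5 to 73.6 CPM in parental cells with CHIR99021 against 38.0 to 51.2 in the other groups. Of 5 tested, Eomes and Cdx2 were called higher and Tfap2c lower in parental cells, against 9.1% and 10.3% of all genes. Endothelium and blood markers (6) summed to 69.7 to 72.7 CPM there, 69.5 to 69.7 in parental cells with DMSO and 81.0 to 94.1 in the knock-out. Pecam1 led this sum, at 64.0 CPM in parental cells with DMSO and 67.55 with CHIR99021. It stood at 73.6 and 86.9 CPM in the knock-out in the same order. Of 5 tested, Tal1 and Cdh5 were called lower and none higher with CHIR99021 in parental cells, against 10.3% and 9.1% of all genes. The knock-out had 1 of the 5 higher than parental cells in DMSO and 3 in CHIR99021, against 3.13% and 11.2% of all genes. The part of any such cells in the Fn1 and Tgfbi results was not tested.

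**Figure D3:**
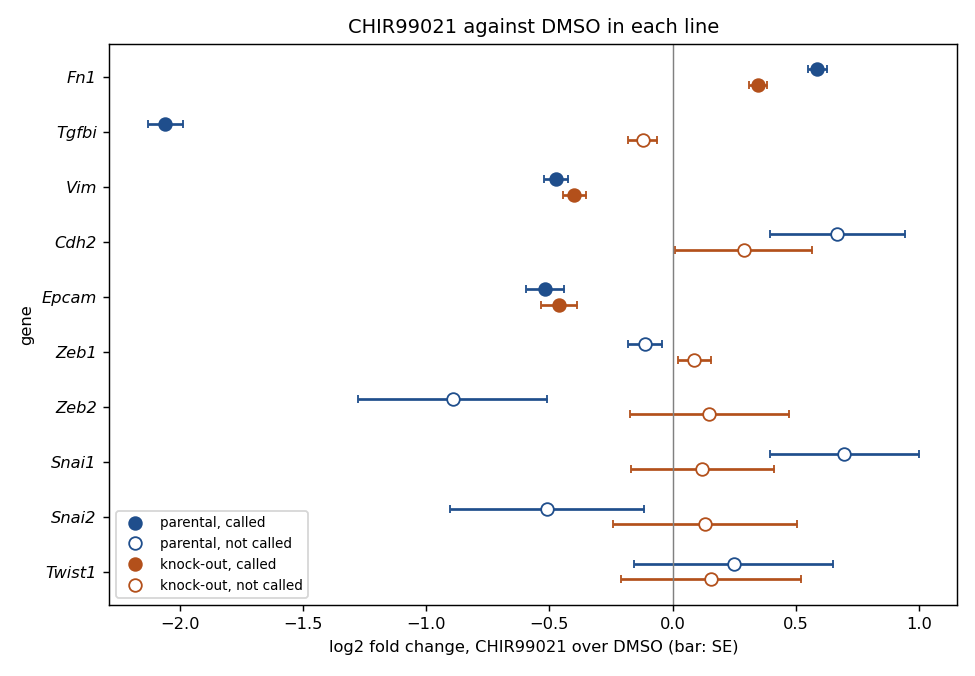
Effect of CHIR99021 on each of the 10 genes as a log2 fold change over DMSO (horizontal axis, bars are SE) for either line, with filled points for called genes. Vim, Epcam and Fn1 move the same way in both lines, and Tgfbi stands at -2.06 in the parental line and -0.12 in the knock-out.

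Vim encodes vimentin, the intermediate filament of mesenchymal cells (ENSMUSG00000026728, chromosome 2, 13573927 to 13582826, plus strand). Its libraries read 156 and 159.9 CPM in parental cells with DMSO, 109 and 119 with CHIR99021, 145 and 142 in the knock-out with DMSO, and 108 and 109 with CHIR99021. The 4 libraries with CHIR99021 lay below the 4 with DMSO, and the 2 groups with CHIR99021 overlapped. CHIR99021 lowered Vim 1.39-fold in parental cells (log2 fold change -0.47 ± 0.05, SE; edgeR adjusted p = 3.54e-05) and 1.32-fold in the knock-out (-0.40 ± 0.05; edgeR adjusted p = 0.00105). The difference of these effects was 0.07 ± 0.07 on the log2 scale and was not called (edgeR adjusted p = 0.585). Between the lines Vim differed by -0.14 ± 0.05 in DMSO (edgeR adjusted p = 0.102; 0.0369 with no filter on low counts) and by -0.07 ± 0.05 in CHIR99021 (edgeR adjusted p = 0.337). Neural markers, of 8 listed, summed to 123 to 127 CPM in parental cells with DMSO and 61.5 to 62.8 with CHIR99021. In the knock-out they summed to 120.3 to 129.7 and 102 to 104 CPM. Tubb3 and Ncam1 led this sum, and Neurog2 was at 0 in every library. CHIR99021 lowered all 5 tested markers in the parental line, against 10.3% of all genes. It lowered 3 of them (Tubb3, Ncam1 and Pax6) in the knock-out, against 4.18% of all genes. None was called higher in either line. The effect differed between the lines for 4 of the 5 (Tubb3, Ncam1, Map2 and Sox1), against 6.13% of all genes. For Vim that difference was not called. The part of any neural cells in the Vim result was not tested.

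Epcam encodes the epithelial adhesion molecule EpCAM, which embryonic stem cells carry and lose on mesenchymal differentiation (ENSMUSG00000045394, chromosome 17, 87635979 to 87651129, plus strand). It read 22.8 and 21.6 CPM in parental cells with DMSO, 15.6 and 15.3 with CHIR99021, 24.9 and 24.8 in the knock-out with DMSO, and 19.3 and 16.8 with CHIR99021. None of the 4 groups overlapped, and each line was lower with CHIR99021. The log2 fold change was -0.52 ± 0.08 (SE; edgeR adjusted p = 0.000709) in parental cells and -0.46 ± 0.07 (edgeR adjusted p = 0.00498) in the knock-out, with a difference of 0.06 ± 0.11 that was not called (edgeR adjusted p = 0.822). Knock-out cells were at 0.16 ± 0.07 against parental cells in DMSO (edgeR adjusted p = 0.23). In CHIR99021 the value was 0.22 ± 0.08 (edgeR adjusted p = 0.0629), which passed without knock-out CHIR99021 replicate 2 (0.0268) and with a filter of 5 CPM in 2 libraries (0.0353). The epithelial gene Epcam and the mesenchymal gene Vim were thus both lowered in each line. The summed embryonic stem cell markers were also lower with CHIR99021, at 5671 to 5808 CPM against 6253 to 6254 in parental cells. In the knock-out the sums were 5554 to 5590 against 5827 to 6023 CPM. Single markers differed: of the 10, 7 were called lower and 1 higher (Klf4) in parental cells, against 10.3% and 9.1% of all genes. In the knock-out 2 were called lower (Utf1 and Tdgf1) and none higher, against 4.18% and 2.88% of all genes. The part of these markers in the Epcam result was not tested.

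The level of Cdh1, which encodes E-cadherin, the partner of β-catenin at the junction, is given beside Epcam. It read 227 and 215 CPM in parental cells with DMSO, 232 and 244 with CHIR99021, 243 and 240.1 in the knock-out with DMSO, and 223 and 216 with CHIR99021. The libraries with CHIR99021 were the higher ones in parental cells and the lower ones in the knock-out. Neither effect was called (log2 fold change 0.11 ± 0.04 and -0.14 ± 0.04, SE; edgeR adjusted p = 0.102 and 0.0823), yet they differed by -0.25 ± 0.06 (edgeR adjusted p = 0.0356). That difference lost its call without any 1 of 6 libraries, all but parental DMSO replicate 1 and parental CHIR99021 replicate 1, with adjusted p from 0.0512 to 0.16.

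Cdh2 encodes N-cadherin, which takes the place of E-cadherin in mesenchymal cells (ENSMUSG00000024304, chromosome 18, 16588877 to 16809246, minus strand). It had few counts, 58 counts over both parental DMSO libraries together and 98 over those with CHIR99021. Its libraries read 1.42 and 1.04 CPM in parental cells with DMSO, 2.26 and 1.63 with CHIR99021, 1.20 and 1.11 in the knock-out with DMSO, and 1.31 and 1.51 with CHIR99021. The ratio of CHIR99021 to DMSO was 1.60 in parental cells (95% exact binomial interval 1.15 to 2.25, counting error only) and 1.22 (0.861 to 1.74) in the knock-out. Neither was called, with log2 fold changes of 0.67 ± 0.27 and 0.29 ± 0.28 (SE; edgeR adjusted p = 0.117 and 0.589, before adjustment 0.0329 and 0.322). Between the lines the values were -0.09 ± 0.29 in DMSO and -0.47 ± 0.27 in CHIR99021 (edgeR adjusted p = 0.905 and 0.235), and the difference of the effects was -0.38 ± 0.39 (edgeR adjusted p = 0.648). Knock-out over parental cells in CHIR99021 gave a count ratio of 0.718 (0.525 to 0.978), so by counting error alone this ratio and that of parental cells lay off 1, while neither passed the test that includes the spread between libraries.

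Among the transcription factors Zeb1, a repressor of Cdh1, was the one with enough counts for small changes to show (ENSMUSG00000024238, chromosome 18, 5591860 to 5775467, plus strand). It read 28.0 and 30.0 CPM in parental cells with DMSO, 27.5 and 26.1 with CHIR99021, 31.1 and 34.4 in the knock-out with DMSO, and 35.3 and 34.3 with CHIR99021. All 4 knock-out libraries lay above all 4 parental ones. The effect of CHIR99021 was -0.11 ± 0.07 in the parental line and 0.09 ± 0.07 in the knock-out (log2, SE; edgeR adjusted p = 0.309 and 0.483). The knock-out was higher by 0.37 ± 0.07 in CHIR99021 (edgeR adjusted p = 0.00244), a fold of 1.30. In DMSO the value was 0.18 ± 0.07, not called (edgeR adjusted p = 0.168), and the difference between these 2 contrasts, 0.20 ± 0.10, was not called either (edgeR adjusted p = 0.278). The antisense transcript Gm10125 within Zeb1 stood at 1.60 to 2.07 CPM in the group means.

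Zeb2, the related repressor, had few counts (ENSMUSG00000026872, chromosome 2, 44983632 to 45117395, minus strand). It read 0.773 and 0.871 CPM in parental cells with DMSO, 0.383 and 0.502 with CHIR99021, 0.906 and 1.11 in the knock-out with DMSO, and 0.888 and 1.35 with CHIR99021. Parental cells with CHIR99021 were lowest, with 22 counts in all against 60 in the knock-out with CHIR99021, a ratio of 2.52 (1.53 to 4.32, 95% exact binomial interval, counting error only). The fitted log2 fold change was 1.33 ± 0.37 (SE; edgeR adjusted p = 0.0225). This call was lost with DESeq2 (adjusted p = 0.128) and without parental CHIR99021 replicate 1 (0.136), parental CHIR99021 replicate 2 (0.0565) or knock-out CHIR99021 replicate 2 (0.175). Within parental cells CHIR99021 gave -0.89 ± 0.39, not called (edgeR adjusted p = 0.137), and the knock-out gave 0.15 ± 0.32 (edgeR adjusted p = 0.835). The difference of these effects was 1.04 ± 0.50 (edgeR adjusted p = 0.272), and the lines differed in DMSO by 0.29 ± 0.34 (edgeR adjusted p = 0.697).

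Snai1, the SNAIL factor of the primitive streak (ENSMUSG00000042821, chromosome 2, 167538195 to 167542814, plus strand), read 1.20 and 1.83 CPM in parental cells with DMSO and 2.38 and 2.55 with CHIR99021. The knock-out read 2.03 and 2.02 with DMSO and 2.84 and 1.54 with CHIR99021, so its 2 CHIR99021 libraries lay on either side of both DMSO ones. In parental cells the groups did not overlap, and the 123 and 72 counts gave a ratio of 1.62 (1.20 to 2.20, 95% exact binomial interval, counting error only). The log2 fold change of 0.70 ± 0.30 (SE) was not called (edgeR adjusted p = 0.14; 0.0529 to 0.509 over the 13 alternatives). In the knock-out it was 0.12 ± 0.29 (edgeR adjusted p = 0.854). The difference of the effects was -0.58 ± 0.42 (edgeR adjusted p = 0.487). Between the lines Snai1 was at 0.42 ± 0.31 in DMSO and -0.16 ± 0.29 in CHIR99021 (edgeR adjusted p = 0.491 and 0.736).

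Snai2, or SLUG (ENSMUSG00000022676, chromosome 16, 14705852 to 14709385, plus strand), and Twist1, a basic helix-loop-helix factor of mesoderm and neural crest (ENSMUSG00000035799, chromosome 12, 33957671 to 33959829, plus strand), had fewer counts than Snai1. Snai2 read 0.773 and 0.830 CPM in parental cells with DMSO, 0.498 and 0.627 with CHIR99021, 0.798 and 0.610 in the knock-out with DMSO, and 0.959 and 0.579 with CHIR99021. Twist1 read 0.859 and 0.498, 0.575 and 1.05, 1.02 and 0.839, and 1.07 and 1.004 CPM in the same order of groups. For both genes every group overlapped its neighbour in the order of levels. None of their 5 contrasts was called, with log2 fold changes of -0.51 to 0.64 for Snai2 and -0.09 to 0.45 for Twist1 (SE 0.36 to 0.54; edgeR adjusted p 0.416 to 0.948). These genes had 28 to 56 counts a group, so an uncalled contrast does not show an unchanged level.

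**Figure D4:**
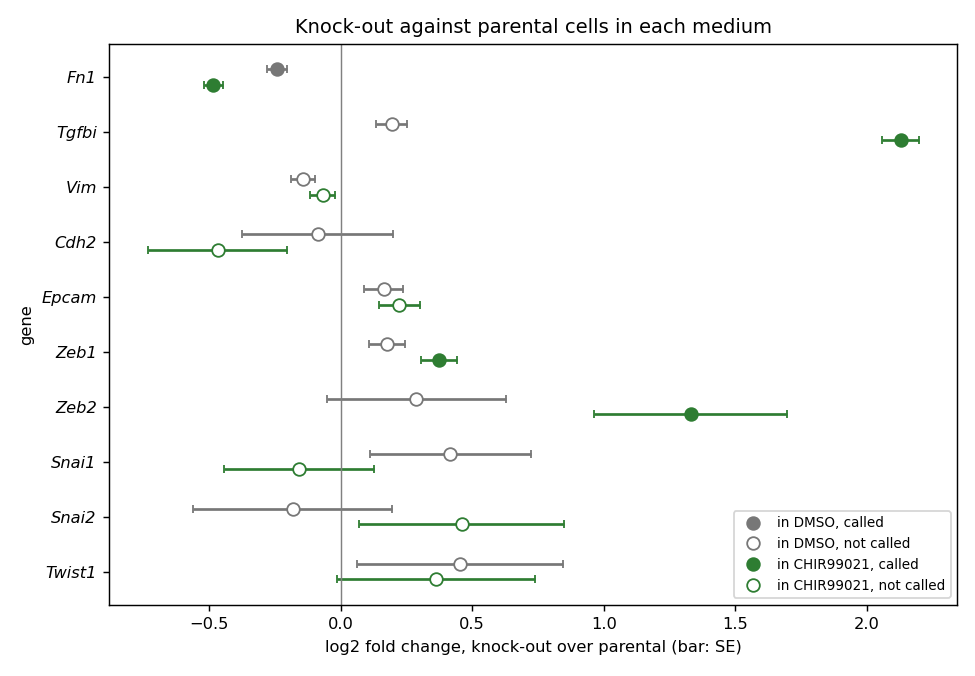
Knock-out against parental cells for the 10 genes as a log2 fold change (horizontal axis, bars are SE) in DMSO and in CHIR99021, with filled points for called genes. In DMSO only Fn1 is called, at -0.24, and in CHIR99021 Tgfbi stands at 2.13, with Zeb1, Zeb2 and Fn1 also called.

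Lists of related genes, chosen with earlier results of these data known, are given by their counts. Of 30 epithelial junction and identity genes CHIR99021 raised 5 and lowered 5 in parental cells and raised 4 and lowered 4 in the knock-out, with a median log2 fold change of -0.0075 and -0.045. Over all tested genes 19.4% and 7.06% were called in these comparisons. P-cadherin (Cdh3) fell by 1.42 and 0.62 on the log2 scale in the 2 lines, and Grhl2, a factor that maintains epithelial genes and opposes ZEB1, fell by 1.47 and 1.13. Krt8, a keratin of simple epithelia, rose by 0.85 ± 0.07 and 0.32 ± 0.07. The membrane protease gene St14 rose by 0.88 ± 0.08 and 0.37 ± 0.08, and its inhibitor gene Spint1 by 0.53 ± 0.05 and 0.25 ± 0.05 (edgeR adjusted p up to 0.0206 for these 5 genes). Claudin 4 (Cldn4) rose in the knock-out (0.49 ± 0.07; edgeR adjusted p = 0.0021), and its effect differed between the lines by 0.61 ± 0.10 (edgeR adjusted p = 0.00305). Of the 30, 2 differed in this direction and 6 in the other, against 3.22% and 2.91% of all genes. The latter include Krt8, St14 and Spint1, by -0.53 ± 0.10, -0.51 ± 0.11 and -0.28 ± 0.07 (edgeR adjusted p = 0.00747, 0.0169 and 0.0421). Krt8 was not called with DESeq2 (adjusted p = 0.0565), St14 not on leaving out 5 of the 8 libraries singly (up to 0.0845), and Spint1 not on leaving out any of the 8 (0.0558 to 0.196). Esrp1, a splicing regulator of epithelial cells, was at -1.06 ± 0.49 and -1.05 ± 0.41, and Ovol2, a repressor of Zeb1, at -0.29 ± 0.37 and -0.51 ± 0.37, none of them called (edgeR adjusted p 0.149 to 0.648). In DMSO the knock-out had 3 of the 30 higher and 3 lower (6.75% of all genes called), and in CHIR99021 6 higher and 6 lower (23.7%).

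Of 35 symbols listed as mesenchymal and matrix genes, 33 were found in the data and 22 were tested. CHIR99021 raised 5 and lowered 8 in parental cells and raised 1 and lowered 3 in the knock-out, with medians of -0.058 and 0.0022. Over all genes 9.1% were higher and 10.3% lower in parental cells, and 2.88% and 4.18% in the knock-out. Nes, which encodes the filament protein nestin and assembles with vimentin, fell by 1.28 in the parental line and 0.41 in the knock-out. Loxl2, an enzyme that crosslinks collagen, fell by 1.05 in parental cells and was at 0.0010 ± 0.079 in the knock-out, not called (edgeR adjusted p = 0.998). Mmp14, a membrane collagenase, fell by 0.55 in parental cells, and Cald1, an actin-binding regulator, rose by 0.53 ± 0.06 and by 0.29 ± 0.06 in the 2 lines. The other genes raised in parental cells were Cd44, Mylk, Mmp9 and Cyr61, by 2.57 ± 0.54, 1.63 ± 0.46, 1.09 ± 0.32 and 0.46 ± 0.14. Their edgeR adjusted p was 0.00642, 0.0296, 0.0334 and 0.0449, and none of them was called in the knock-out. The effect differed between the lines for Loxl2 by 1.05 ± 0.12, for Nes by 0.87 ± 0.13 and for Mmp14 by 0.56 ± 0.10 (edgeR adjusted p = 0.000303, 0.002 and 0.00886). These 3 were the called differences in the list, all in 1 direction, against 3.22% of all genes in it. The knock-out had 2 of the 22 higher in DMSO and none lower (3.13% and 3.62% of all genes), and 6 higher and 1 lower in CHIR99021 (11.2% and 12.5%).

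Receptors for fibronectin and TGFBI were a list of 11, of which 10 were tested. Among them CHIR99021 raised 1 and lowered 3 in parental cells, raised 2 in the knock-out, and had effects that differed between the lines for 5, against 19.4%, 7.06% and 6.13% of all genes called. Sdc4, a heparan sulphate proteoglycan that binds fibronectin beside integrins, rose by 1.36 ± 0.07 in the parental line and 0.31 ± 0.07 in the knock-out, a difference of -1.05 ± 0.10 (edgeR adjusted p = 9.21e-05). Itga9 and Itgb5 fell by 1.12 and 0.54 on the log2 scale in parental cells. The chains of the classical fibronectin receptor, Itga5 and Itgb1, were higher in the knock-out with CHIR99021, by 0.47 ± 0.04 and 0.43 ± 0.04 (edgeR adjusted p = 1.91e-05 and 2.66e-05), where Fn1 itself was lower. In DMSO, where Fn1 was lower too, both chains were higher by 0.21 ± 0.04 and 0.16 ± 0.04 (edgeR adjusted p = 0.0154 and 0.044). Itgb1 fell by 0.19 in parental cells with CHIR99021 (edgeR adjusted p = 0.00725), which did not pass on leaving out replicate 1 of parental DMSO (0.0613) or of parental CHIR99021 (0.0863). Itga5 was at -0.13 ± 0.04 in the same comparison (edgeR adjusted p = 0.0537). Itgav was higher in the knock-out with CHIR99021 against parental cells by 0.39 ± 0.09 (edgeR adjusted p = 0.00857; 0.0976 on leaving out parental CHIR99021 replicate 1, 0.0696 on leaving out knock-out CHIR99021 replicate 2). Knock-out cells had 4 of the 10 higher and 1 lower in DMSO (6.75% of all genes called), and 6 higher and 2 lower in CHIR99021 (23.7%).

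In the TGF-β pathway, which induces these genes in many cells, CHIR99021 raised 1 of 19 and lowered 3 in parental cells and lowered 2 in the knock-out. The share in parental cells is near the 19.4% of all genes called there, and 7.06% of all genes were called in the knock-out. The ligand gene Tgfb1 rose by 0.62 ± 0.10 in parental cells. The transducer gene Smad3 fell by 0.41, and Ski and Skil, which hold SMAD proteins inactive, fell by 0.52 and 0.56 on the log2 scale (edgeR adjusted p up to 0.000893 for the 4). In the knock-out with DMSO 1 of the 19 was higher, Skil at 0.47 ± 0.05 (edgeR adjusted p = 0.000383), and in CHIR99021 3 were higher and 3 lower, against 6.75% and 23.7% of all genes called. The effect differed between the lines for Skil, Ski and Tgfb1, by 0.58 ± 0.07, 0.33 ± 0.07 and -0.53 ± 0.14 (edgeR adjusted p = 5e-04, 0.012 and 0.0478). That of Ski was not called without parental CHIR99021 replicate 2 (0.0542) or knock-out CHIR99021 replicate 1 (0.055). That of Tgfb1 was not called with DESeq2 (0.295) or on leaving out any library other than parental DMSO replicate 2 (0.0764 to 0.178).

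**Figure D5:**
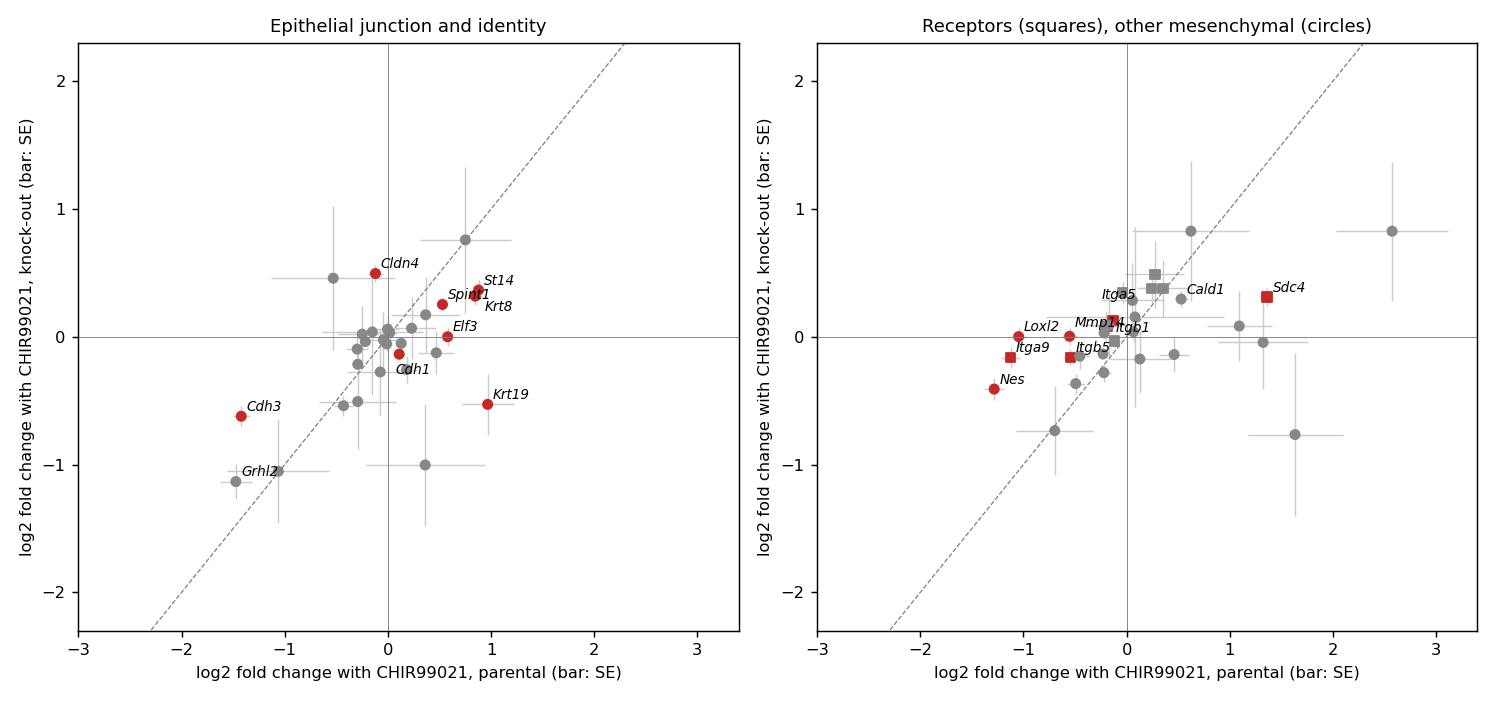
Log2 fold change with CHIR99021 in parental cells (horizontal axis) against that in the knock-out (vertical axis), bars are SE, for 30 epithelial genes (left) and for 22 mesenchymal genes and 10 receptors (right). Red points are genes whose effect differed between the lines, the dashed line marks equal effects, and named points off it include Sdc4, at 1.36 and 0.31.

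Some other genes had profiles close to those of the 5 abundant genes among the 10. Likeness was the Pearson correlation of log2 CPM over the 8 libraries against 9877 other genes of at least 5 CPM, given as a description, since libraries of a group share their treatment. Tgfbi was most like Fig4, Enah and Frmd4a (r = 0.998, 0.998 and 0.996), and Fn1 most like Tead4, Cpt1a and Plekhg3 (0.993, 0.991 and 0.989). Vim was most like Apobec3, Xpo7 and Armcx1 (0.992, 0.988 and 0.988). Epcam followed Zfp740, Ubtd2 and Zcchc3 (0.983, 0.977 and 0.975) and Zeb1 followed Tmtc1, Pex2 and Adcy1 (0.981, 0.981 and 0.979).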

How the data were processed

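Polyadenylated RNA was prepared with a stranded mRNA kit per the labels' protocols. The authors quantified transcripts with kallisto on GRCm38.p4, per the submitters' processing notes, and deposited estimated counts per gene. The kallisto version, transcript set and strand setting are not given in the sources used here, so reads of overlapping antisense genes may not be separable. The estimated counts were rounded and tested with edgeR 4.0.16 in R 4.3.3: filterByExpr (minimum count 10, minimum total 15), TMM scaling, 1 mean per group over all 8 libraries (4 residual degrees of freedom) and the two-sided quasi-likelihood F test, with Benjamini-Hochberg adjustment at 0.05 over 17739 genes. The standard error of a log2 fold change was its size divided by the root of F. Intervals of count ratios are 95% exact binomial and cover counting error only. Depth was 23650572 to 27680649 counts per library, and the common biological coefficient of variation was 0.05324. Positions are from GENCODE M21 and promoters from RefSeq. The edgeR step was tested on simulated data.

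The 10 genes and the related lists were chosen with earlier results of these data known. Beyond the 10, the text names Cdh1, Grhl2, Ovol2, Esrp1, Itga5, Itgav and Itgb1, and, per related list, up to 4 genes of smallest adjusted p with CHIR99021 in parental cells and up to 2 in the difference between the lines. All other called differences in these lists, and all mesenchymal genes raised in parental cells, are also named, which are extensions chosen after seeing the data. For each of the 10 with a mean of at least 5 CPM, the 3 genes of most similar profile are named. Alternatives were DESeq2 1.42.0, RLE scaling, other filters on low counts, the compared groups alone, a replicate block, and leaving out each library.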

Additional observations from a re-analysis of the deposited data

Results flagged for a closer look

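Among the 10 genes and the 4 related lists, 21 genes were called in a test of the difference itself, CHIR99021 effect in the knock-out minus that in parental cells, against 1087 (6.13%) of all tested genes. The sets held 10, 30, 22, 19 and 10 tested genes (the 10 genes, then the epithelial, mesenchymal, TGF-β and receptor lists). They were chosen with earlier results of these data known, so their share beside that of all genes is only a description. Values are on the log2 scale with SE and edgeR adjusted p, from 2 libraries per group. Of the 10 genes, Tgfbi differed by 1.94 ± 0.09 (adjusted p = 1.58e-06) and Fn1 by -0.24 ± 0.05 (adjusted p = 0.022). Among 30 epithelial genes 2 differed upward, Cdh3 by 0.80 ± 0.11 (0.00155) and Cldn4 by 0.61 ± 0.10 (0.00305). The other 6 differed downward: Elf3 by -0.58 ± 0.10 (0.00443), Krt8 by -0.53 ± 0.10 (0.00747), St14 by -0.51 ± 0.11 (0.0169), Krt19 by -1.50 ± 0.35 (0.0287), Cdh1 by -0.25 ± 0.06 (0.0356) and Spint1 by -0.28 ± 0.07 (0.0421). Among mesenchymal genes, Loxl2 differed by 1.05 ± 0.12 (0.000303), Nes by 0.87 ± 0.13 (0.002) and Mmp14 by 0.56 ± 0.10 (0.00886). In the TGF-β list, Skil differed by 0.58 ± 0.07 (5e-04), Ski by 0.33 ± 0.07 (0.012) and Tgfb1 by -0.53 ± 0.14 (0.0478). Among receptors, Sdc4 differed by -1.05 ± 0.10 (9.21e-05), Itga9 by 0.96 ± 0.12 (0.000879), Itgb1 by 0.27 ± 0.06 (0.0178), Itga5 by 0.26 ± 0.06 (0.0295) and Itgb5 by 0.38 ± 0.09 (0.0308).

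With each of the 8 libraries left out in turn, 11 of the 21 kept their call every time (Tgfbi, Sdc4, Loxl2, Skil, Itga9, Cdh3, Nes, Cldn4, Elf3, Krt8 and Mmp14). Krt8 was not called with DESeq2 (adjusted p = 0.0565). The other 10 lost it in some: Ski in 2 (adjusted p up to 0.055), Fn1 in 4 (up to 0.114), St14, Itgb1 and Itgb5 in 5 each (up to 0.0845, 0.0844 and 0.123), Krt19 and Cdh1 in 6 each (up to 0.115 and 0.16), Itga5 and Tgfb1 in 7 each (up to 0.123 and 0.178) and Spint1 in all 8 (0.0558 to 0.196).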

How the results depend on the processing

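With 2 libraries a group, counts of called genes moved with the processing, and the cause was not tested. DESeq2 called 2205 genes for CHIR99021 in parental cells, 795 for the lines in DMSO and 2709 for the lines in CHIR99021. With no filter on low counts the calls were 2167 for CHIR99021 in the knock-out, 2064 for the lines in DMSO and 1990 for the difference of the effects, and 2 of the 10 genes (Fn1 and Vim) were called between the lines in DMSO.

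Leaving out 1 library at a time gave 2057 to 3507 genes for CHIR99021 in parental cells, with over 1.5 times fewer calls without parental DMSO 1 or 2 or parental CHIR99021 1. In the knock-out it gave 307 to 1237, with such drops without knock-out DMSO 1 or CHIR99021 1 or 2. Between the lines it gave 357 to 1047 in DMSO, with such drops for each of the 4 DMSO libraries, and 2509 to 4353 in CHIR99021, with drops without parental CHIR99021 1 or knock-out CHIR99021 1 or 2. For the difference of the effects it gave 605 to 1143, with drops without replicate 1 of parental DMSO, parental CHIR99021 or knock-out DMSO, or replicate 2 of knock-out CHIR99021. Among the 10 genes, leaving out 1 library changed which were called between the lines in CHIR99021 and for the difference of the effects. Without knock-out CHIR99021 replicate 2, Zeb2 lost its call and Epcam gained one between the lines in CHIR99021. In the other comparisons the called genes stayed the same.

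Same-numbered libraries showed little shared deviation, with correlations of -0.056 to 0.104 between groups. These values do not show whether the libraries were prepared in pairs. With the replicate number as a block, 4, 3, 1, 4 and 2 of the 10 genes and 3434, 1313, 1225, 4296 and 1135 of all genes were called.

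Of 651 fold changes of the 10 genes under alternatives, 627 kept direction and call, 8 lost and 3 gained a call, and 13, none called, turned direction, each with 1 library left out. Leaving out 1 library gave, for Twist1, -0.23 to 0.68 with CHIR99021 in parental cells, -0.013 to 0.84 between the lines in CHIR99021 and -0.53 to 0.39 for the difference of the effects. With CHIR99021 in the knock-out the ranges were -0.39 to 0.49 for Snai1, -0.28 to 0.44 for Snai2 and -0.18 to 0.42 for Zeb2. Between the lines they were -0.30 to 0.15 for Cdh2 in DMSO and -0.67 to 0.21 for Snai1 in CHIR99021, and the difference for Epcam ran from -0.045 to 0.16.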
